A study of Mus musculus with 18 samples.

Results

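The effect of Prep deletion on gene expression was compared between LPS-stimulated (M1) and IL-4- and IL-13-stimulated (M2) mouse macrophages. The quantity described is, for each gene, the log2 fold change of Prep-/- over Prep+/- cells in M2 minus the same log2 fold change in M1. The members were all 12021 genes with enough reads to be tested, of 16314 gene rows, measured by RNA-seq in the 12 M1 and M2 libraries of a set of 18. Primary bone marrow-derived macrophages were grown from the femoral marrow of Prep+/- and Prep-/- littermates of the C57BL6/J background over 7 days in M-CSF at 50 ng/ml, and then received LPS at 50 ng/ml for 24 h (M1), IL-4 and IL-13 at 20 ng/ml each for 24 h (M2) or no further stimulus (M0). Each of the 4 groups compared, Prep+/- M1, Prep-/- M1, Prep+/- M2 and Prep-/- M2, held 3 libraries labelled as biological replicates. The M0 libraries (3 per genotype) enter the filter on low counts and the estimate of the spread, but not the difference. The controls carry 1 intact Prep allele, so loss of at least 1 allele is shared by all groups and no wild-type cells are in the comparison. Age and sex of the marrow donors, and whether marrow was pooled, are not given in the sources used here, so the p-values measure the spread between these libraries.

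Macrophages read microbial products and cytokines through separate receptors. LPS acts through Tlr4 on NF-κB and on interferon regulatory factors, which switch on cytokines, chemokines and, through secreted interferon, antiviral genes. IL-4 and IL-13 act through Stat6 and favour scavenger and lectin receptors, arginase and tissue-repair programmes. Prep encodes prolyl endopeptidase, a serine peptidase that cleaves short peptides after proline.

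Prep itself gave 681, 551 and 663 normalized read counts (counts scaled to a common library size) in Prep+/- M1 and 35.2, 47 and 59.2 in Prep-/- M1. In M2 it gave 799, 810 and 851 in Prep+/- and 68.1, 50.8 and 60.9 in Prep-/-. The genotypes did not overlap in either state, and the log2 effect was −3.74 in M1 and −3.77 in M2, a difference of −0.03 ± 0.26 (SE; edgeR adjusted p = 0.956). Total counts were between 19549993 and 22598279 in the 12 libraries. Prep-/- M2 replicate 3 stood apart from the other replicates of its group, with an SD of the log2 ratio to them of 0.678 against 0.292 to 0.458 in the other M1 and M2 libraries, and called values and counts that moved by more than 1.5 times without it are given both ways. Among the M0 libraries of the same fit, Prep-/- M0 replicate 3 gave 0.592, and no single M0 library was left out. In M2, same-numbered Prep+/- and Prep-/- libraries deviated together from their group means (correlations of 0.249, 0.255 and 0.462), so values from a fit that blocks on that number in M2 alone (the replicate block in M2, added after the data were seen) are given where they change a call or move a count by more than 1.5 times. All 9 macrophage markers were detected in all groups, and their summed level was 46400 to 47900 CPM (counts scaled by library size) in Prep+/- M1, 31600 to 37600 in Prep-/- M1, 10500 to 12600 in Prep+/- M2 and 14400 to 20000 in Prep-/- M2. The summed level of 12 granulocyte precursor markers was 231 to 292 CPM in Prep+/- M1, 70.3 to 99.8 in Prep-/- M1, 49.1 to 58.9 in Prep+/- M2 and 55.1 to 83.7 in Prep-/- M2, and 3 of the 7 that could be tested (Mmp8, Camp and S100a8) were called with a higher knockout effect in M2. So were 3 of the 9 macrophage markers (Lyz2, Cd14 and Csf1r). Lyz2 and Mmp8 held the most counts of their lists over the 12 libraries (4533053 and 12735), so neither sum is independent of these genes. Markers of erythroid, mast, B, T and NK, dendritic and stromal cells summed to at most 0.134, 0.0606, 7.17, 4.68, 2.83 and 20.7 CPM in any library, with Hba-a2, Ms4a1 and Ms4a2 at 0 throughout. The part of the macrophage and granulocyte markers in the results was not tested. In bulk cultures, fewer cells of a type and less RNA per cell cannot be told apart.

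The knockout effect differed between the states for 1435 genes (11.9% of those tested), called at an edgeR adjusted p under 0.05 and a difference of more than 1.5-fold. It was higher in M2 for 551 genes (4.58%) and lower in M2 for 884 (7.35%). The difference exceeded 2-fold for 802 of these genes, 4-fold for 220 and 8-fold for 68, while the median difference over all tested genes was −0.02 on the log2 scale. Within each state, 1947 genes passed in M2 (16.2%) and 2700 in M1 (22.5%). Across all tested genes, which are not independent replicates, the effects in the states, which share no library, correlated with a Pearson's r of 0.36 and a Spearman's rho of 0.39. Without Prep-/- M2 replicate 3 the number called was 1780, of which 1218 were among the 1435.

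**Figure D1:**
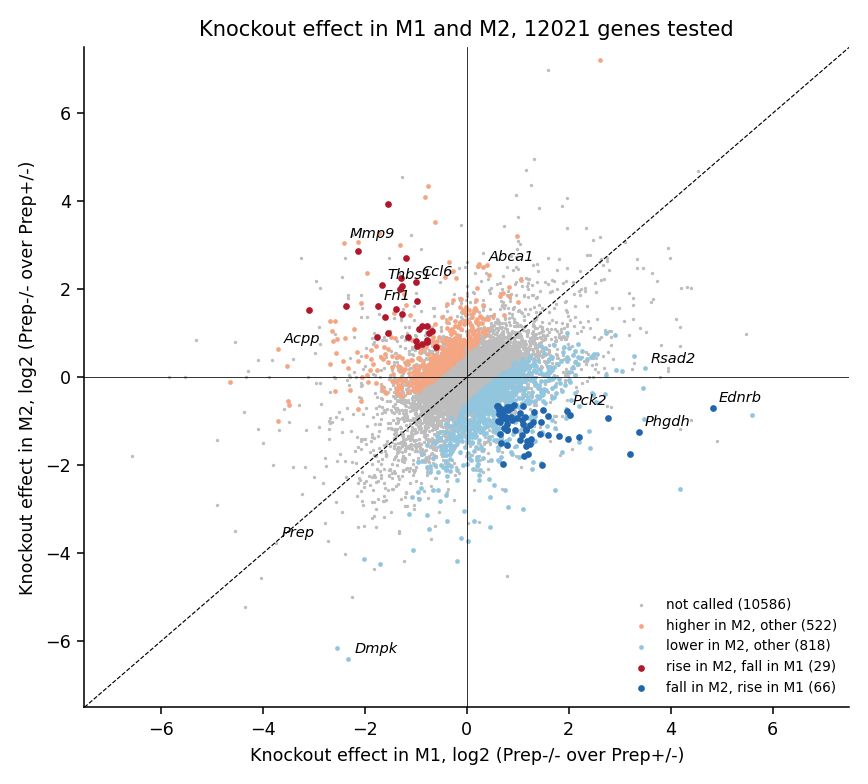
Log2 knockout effect (Prep-/- over Prep+/-) in M1 on the x axis and in M2 on the y axis, 1 point per tested gene, with the 1435 genes called for a different effect coloured by direction and, in darker colours, the genes that moved in opposite directions. The called genes lie away from the diagonal on which both effects are equal, 551 above it and 884 below it.

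The called genes fell into groups by the state in which the effect itself passed. Ablation moved 95 genes (6.62% of the called) in opposite directions: 29 rose in M2 and fell in M1, and 66 fell in M2 and rose in M1. For 88 of the 95 the Prep+/- and Prep-/- libraries did not overlap in either state. These genes were chosen for passing in both states, which makes overlap unlikely, so this count adds no separate support. A further 158 genes rose in M2 and 293 fell in M2 with no call in M1, whereas 347 rose and 215 fell in M1 with no call in M2. In 41 genes both effects had the same direction, 30 of them larger in M2 and 11 larger in M1. The remaining 286 passed in neither state alone, and only the difference was called.

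Of the 29 genes that rose in M2 and fell in M1, the 6 with the largest differences were Thbs1, Fn1, Rbpms, Ccl6, Adam19 and Adgre5. Thbs1 (GRCm39 chr2:117941974-117957616, plus strand), which encodes the secreted matrix glycoprotein thrombospondin-1, gave 17255, 15860 and 16338 normalized counts in Prep+/- M1 and 4986, 4236 and 6387 in Prep-/- M1. In M2 the values were far lower, 69.5, 102 and 68 in Prep+/- and 374, 350 and 310 in Prep-/-. Loss of Prep thus went with less Thbs1 in M1 and more in M2, with no overlap, and the difference was 3.77 ± 0.44 (log2, SE; edgeR adjusted p = 0.000101). Ccl6 (chr11:83478708-83483913, minus strand), a CC chemokine, gave 4922, 5978 and 7060 in Prep+/- M1 against 2456, 2578 and 3963 in Prep-/- M1. In M2 the counts went from 4690, 4450 and 4109 in Prep+/- to 24134, 18361 and 16931 in Prep-/-. The control level of Ccl6 was thus similar in both states, and the difference of 3.16 ± 0.27 (adjusted p = 6.4e-06) arose from a fall in one and a rise in the other. Fn1 (chr1:71624673-71692419, minus strand), which encodes the matrix protein fibronectin, gave 120, 115 and 96.2 in Prep+/- M1, 25.3, 66.2 and 7.54 in Prep-/- M1, 1309, 1834 and 1323 in Prep+/- M2 and 5243, 4433 and 4077 in Prep-/- M2. The groups did not overlap in either state (difference 3.36 ± 0.64, adjusted p = 0.00319). Rbpms, an RNA-binding protein gene, differed by 3.35 ± 0.47 and Adam19, a membrane metalloprotease gene, by 2.98 ± 0.53, with adjusted p of 0.000468 and 0.00198. Adgre5, which encodes the adhesion receptor CD97, differed by 2.73 ± 0.49 (adjusted p = 0.0023), but its M2 counts overlapped: 1243, 1507 and 967 in Prep+/- against 4439, 4308 and 1417 in Prep-/-, the last in the library that stood apart. All 6 overlap an annotated gene on the other strand (Gtf2e2 for Rbpms and Ddx39a for Adgre5, for example), as do 60 of the 103 named genes. The study prepared its libraries with a stranded mRNA kit, but whether strand was used in counting is not given in the sources used here.

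**Figure D2:**
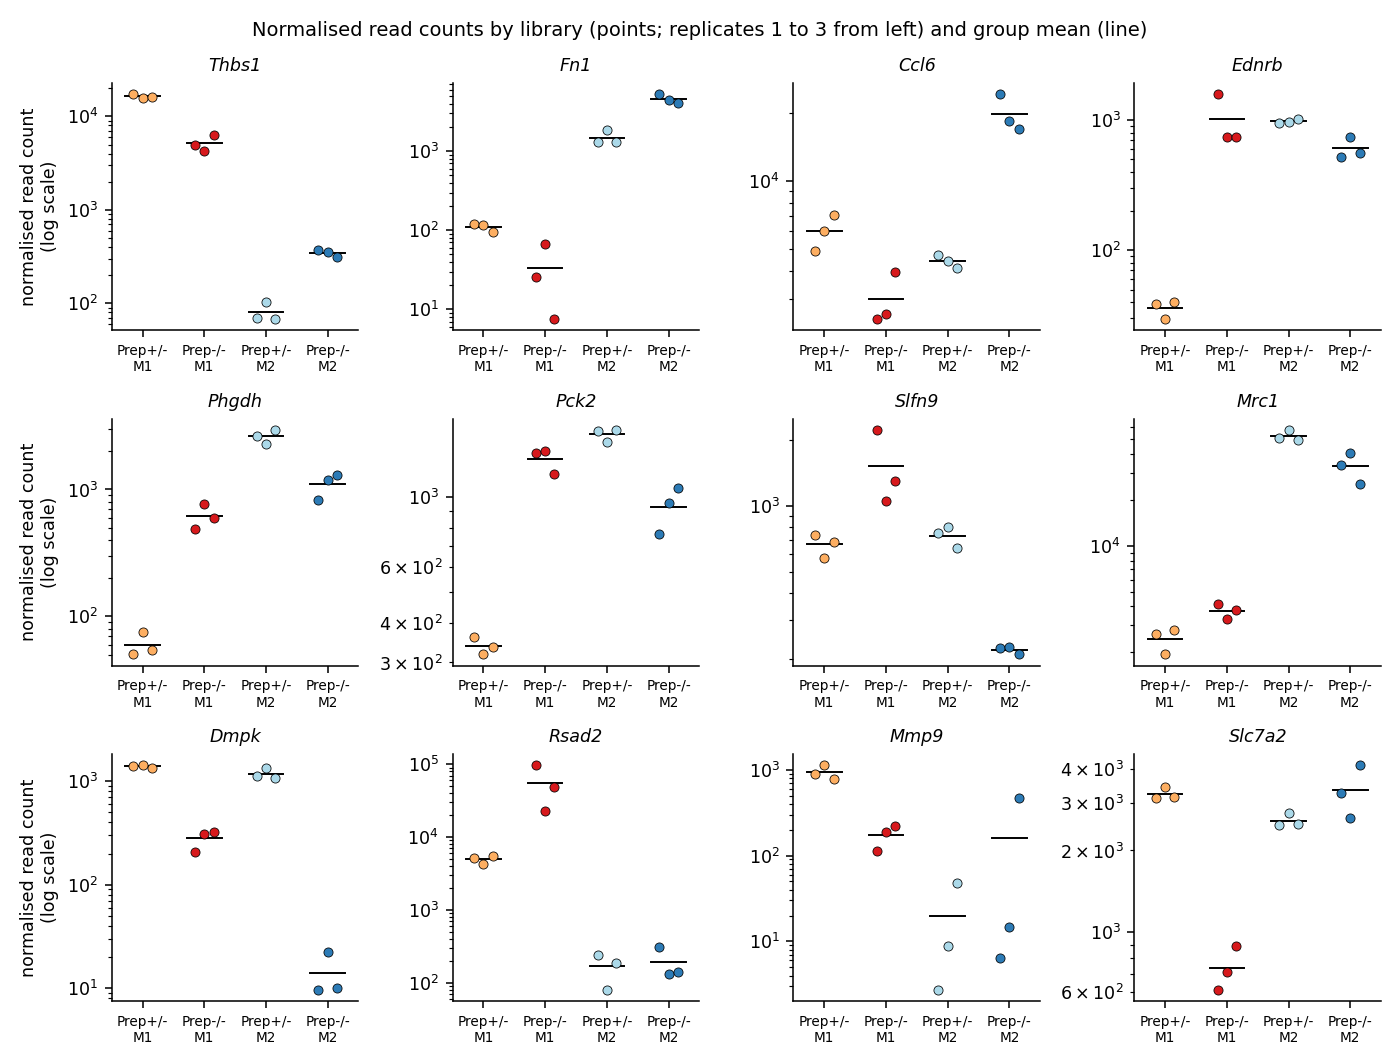
Normalized read counts (log axis) of 12 genes in each of the 12 libraries, 1 panel per gene, grouped as Prep+/- and Prep-/- in M1 and M2; points are libraries and lines are group means. The Prep-/- points of Thbs1, Fn1 and Ccl6 lie below the Prep+/- points in M1 and above them in M2, and those of Ednrb, Phgdh, Pck2, Slfn9 and Mrc1 show the opposite arrangement.

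Of the 66 genes with the reverse pattern, a fall in M2 and a rise in M1, the 6 with the largest differences were Ednrb, Phgdh, Slfn9, Tspoap1, Ddah2 and Pck2. Ednrb (chr14:104052053-104081900, minus strand), the endothelin B receptor gene, gave 38.7, 29.7 and 39.8 in Prep+/- M1 and 1581, 744 and 745 in Prep-/- M1. The M2 cells gave 947, 974 and 1016 in Prep+/- and 519, 743 and 560 in Prep-/-. The Prep+/- M1 libraries were thus far below all the others, and the difference was −5.51 ± 0.39 (edgeR adjusted p = 1.62e-06). Phgdh (chr3:98220484-98255047, minus strand), which encodes the first enzyme of serine synthesis, gave 50.1, 74.9 and 53.9 in Prep+/- M1, 486, 770 and 599 in Prep-/- M1, 2642, 2264 and 2952 in Prep+/- M2 and 833, 1194 and 1312 in Prep-/- M2. The gap between the states in the controls was thus narrowed from both sides, with no overlap (difference −4.61 ± 0.58, adjusted p = 0.000196). Its transcript is 97.2% identical to the pseudogene Gm9347 over a long stretch, so reads may be divided between them. Pck2 (chr14:55777542-55788758, plus strand), the mitochondrial phosphoenolpyruvate carboxykinase gene, gave 361, 318 and 336 in Prep+/- M1, 1375, 1399 and 1181 in Prep-/- M1, 1619, 1492 and 1629 in Prep+/- M2 and 763, 955 and 1069 in Prep-/- M2. It showed the same arrangement (difference −2.73 ± 0.21, adjusted p = 2.13e-06). Slfn9, of the Schlafen family, gave 738, 575 and 685 in Prep+/- M1, 2222, 1046 and 1300 in Prep-/- M1, 751, 801 and 638 in Prep+/- M2 and 223, 225 and 209 in Prep-/- M2. Its control level was alike in both states (difference −2.93 ± 0.31, adjusted p = 6.25e-05), but it shares a near-identical stretch of 3859 bases with Slfn8 and the counts may be split. Tspoap1 and Ddah2, which encodes a protein of the dimethylarginine dimethylaminohydrolase family, differed by −2.88 ± 0.39 and −2.75 ± 0.4 (adjusted p = 0.000327 and 0.000544), and their genotypes did not overlap in either state.

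Of the called genes whose effects did not pass in opposite directions, Acpp, Htra4 and Plaur had large positive differences that were called under each library left out. Acpp, an acid phosphatase gene, gave 711, 912 and 949 in Prep+/- M1 and 42.9, 90.7 and 64.6 in Prep-/- M1. Its M2 libraries held 27.1, 34.6 and 25.5 in Prep+/- and 43.7, 62.4 and 30.4 in Prep-/-. Acpp fell after Prep ablation in M1, while the M2 libraries overlapped and were not called (difference 4.33 ± 0.48, edgeR adjusted p = 7.66e-05). Htra4, a serine protease gene, gave 92.9, 98.5 and 86.8 in Prep+/- M2 and 449, 370 and 209 in Prep-/- M2, against 20.2 to 32.1 in Prep+/- M1 and 9.69 to 12.8 in Prep-/- M1 (difference 3.12 ± 0.61, adjusted p = 0.00379). Plaur, the urokinase receptor gene, gave 3479, 4672 and 4522 in Prep+/- M1, 551, 736 and 1140 in Prep-/- M1, 1672, 1397 and 3601 in Prep+/- M2 and 2095, 1617 and 8748 in Prep-/- M2. Its fall in M1 was clear of overlap, but the M2 counts overlapped, and the difference of 3.29 ± 0.74 (adjusted p = 0.00866) was 2.12 without Prep-/- M2 replicate 3.

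Mmp9 had the largest positive difference among the called genes that averaged 5 CPM or more with no group at the floor, and it depended on single libraries. Mmp9, which encodes a gelatinase, gave 891, 1125 and 777 in Prep+/- M1 and 114, 189 and 221 in Prep-/- M1, a fall without overlap. In M2 there were 2.71, 8.88 and 48.1 counts in Prep+/- cells, against 6.39, 14.8 and 465 in Prep-/-. Replicate 3 of each M2 group lay far above the other replicates, and the difference of 5.46 ± 1.43 (edgeR adjusted p = 0.0189) became 1.54 (adjusted p = 0.373) without Prep-/- M2 replicate 3, and was also no longer called without Prep+/- M2 replicate 1 (4.91) or replicate 2 (5.08). Phlda1 went from 3.98 to 1.76 and Upp1, the uridine phosphorylase 1 gene, from 2.97 to 1.45 without Prep-/- M2 replicate 3, neither then called, and both also lost the call without Prep+/- M1 replicate 2 or 3 or Prep+/- M2 replicate 1 or 2. Phlda1 lost it as well without Prep-/- M1 replicate 1 or 2, and Upp1 with the replicate block in M2 (2.87, adjusted p = 0.06).

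Large negative differences came from genes lost more deeply in M2 or raised in M1 alone. Dmpk (chr7:18817406-18827746, plus strand), a serine/threonine kinase gene, gave 1417, 1425 and 1356 in Prep+/- M1 and 206, 309 and 324 in Prep-/- M1. M2 libraries gave 1131, 1356 and 1070 in Prep+/- and 9.58, 22.2 and 10.1 in Prep-/-. It fell in both states, and further in M2 (difference −4.08 ± 0.36, edgeR adjusted p = 9.41e-06). Fabp7, a fatty acid-binding protein gene, gave 175, 170 and 132 in Prep+/- M2 and 23.4, 12.7 and 13.2 in Prep-/- M2, against 885, 1039 and 1077 in Prep+/- M1 and 698, 746 and 864 in Prep-/- M1 (difference −2.89 ± 0.31, adjusted p = 6.73e-05). Its M1 libraries did not overlap either, but that effect of −0.38 was not called. Ctnnd2, a delta-catenin gene, gave 260, 207 and 296 in Prep+/- M2 and 1.06, 15.9 and 42.6 in Prep-/- M2, with overlapping M1 counts of 92.3 to 96.4 in Prep+/- and 51.2 to 139 in Prep-/- (difference −3.54 ± 0.81, adjusted p = 0.00939; −4.77 without Prep-/- M2 replicate 3). Cd69, an early activation antigen, gave 382, 478 and 463 in Prep+/- M1 and 3730, 1049 and 2159 in Prep-/- M1, and no more than 11.7 in any M2 library. Its difference of −3.61 ± 0.96 (adjusted p = 0.0201) was −3.39 and no longer called without Prep+/- M2 replicate 1, nor with the replicate block in M2 (−3.62, adjusted p = 0.0514). Rsad2 and Asns, the other genes of this group, are described with their pathways.

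Unstimulated cells, whose libraries do not enter the difference, gave the same contrast of genotypes without stimulation, where 3913 genes (32.6%) passed, 15.4% of the tested rising and 17.2% falling. Of the 158 genes that rose in M2 with no call in M1, 108 (68.4%) also rose in M0. Of the 293 that fell in M2 with no call in M1, 206 (70.3%) also fell in M0. For genes called in M1 alone the shares were lower: 84 of the 347 that rose in M1 rose in M0, and 65 of the 215 that fell in M1 fell in M0. How often all genes that passed in M2 or M1 also passed in M0 was not counted. The shares above are therefore not shown to be particular to genes called for the difference. Among the 95 genes moving in opposite directions, M0 followed the direction of M2 for 48 and that of M1 for 6, with 41 not called in M0. Thbs1 (4.63 in M0), Ccl6 (1.18), Phgdh (−2.08) and Slfn9 (−1.49) followed M2, whereas Ednrb (1.83) followed M1.

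The gene lists below are described by their called members and by the median difference of all tested members, to be read beside the −0.02 of all tested genes and the shares of 4.58% higher and 7.35% lower. Counts of members that rose or fell within a state have their own shares over all tested genes. In M2, 6.37% rose and 9.82% fell, and in M1, 12.3% rose and 10.2% fell.

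**Figure D3:**
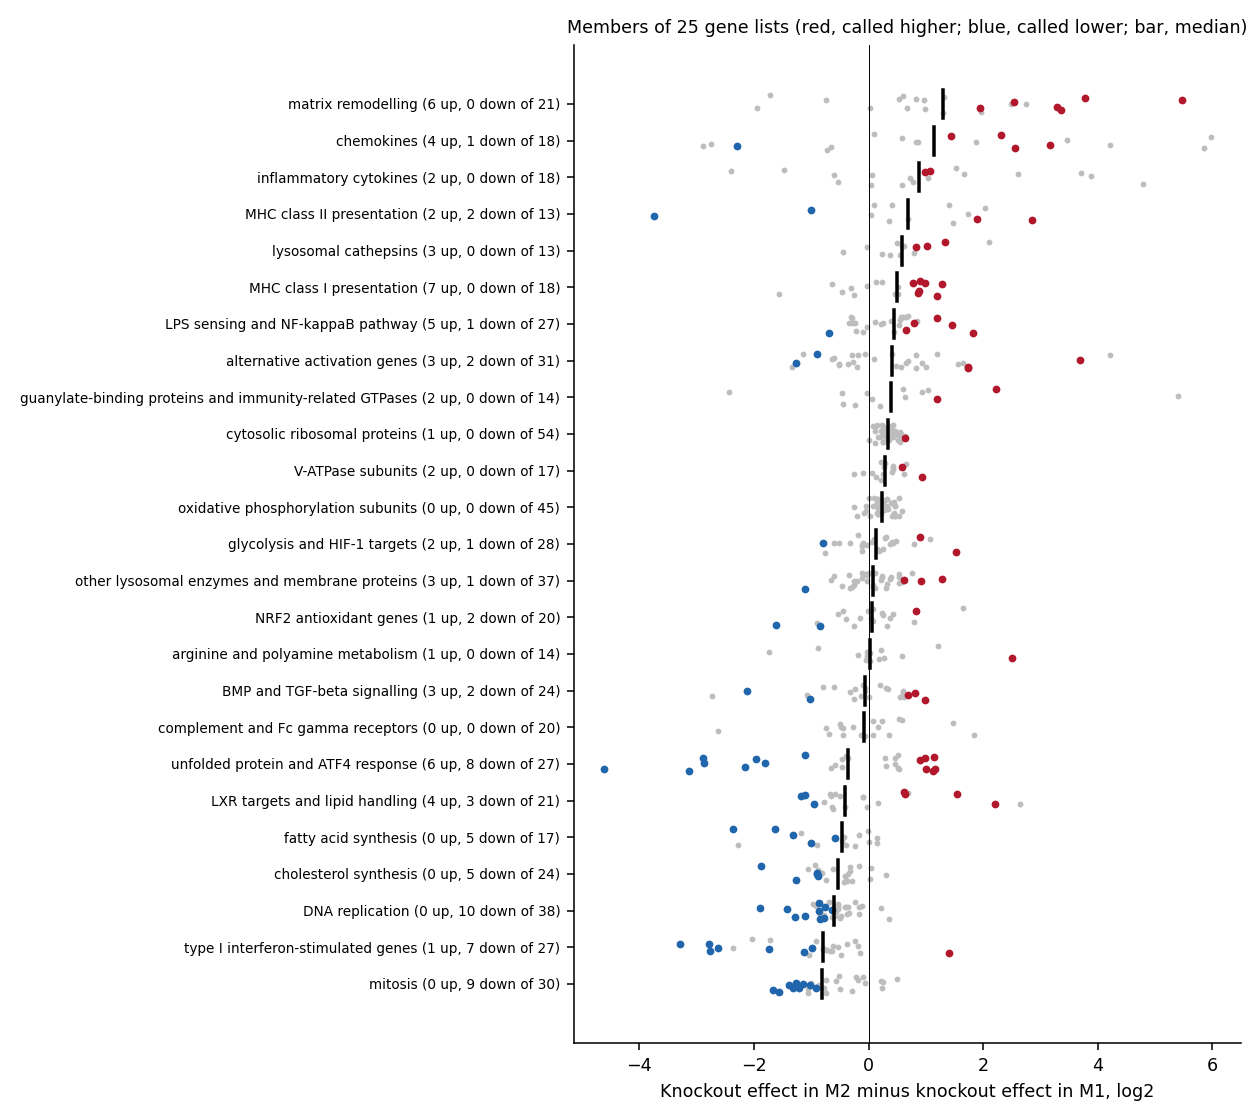
Log2 difference of the knockout effect (M2 minus M1) of each tested member of 25 gene lists, 1 row per list, with called members marked and the median of the list as a line. The matrix remodelling list has the highest median, 1.3, and the mitosis list (−0.82) and the type I interferon-stimulated genes (−0.8) the lowest.

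Type I interferon-stimulated genes, the antiviral effectors and signalling proteins switched on by interferon-α/β, had lower knockout effects in M2. Of 27 tested, 7 were called lower in M2 (Rsad2, Ifit2, Cmpk2, Oasl1, Oas3, Oas2 and Stat2) and 1 higher (Zbp1), 26 of the 27 differences were below 0, and the median was −0.8. In M1, 12 members rose after Prep ablation, while in M2 1 rose and 3 fell. Rsad2, which encodes the antiviral protein viperin, gave 5157, 4220 and 5491 normalized counts in Prep+/- M1 and 96597, 22489 and 48390 in Prep-/- M1. The counts in M2 reached 239, 79 and 188 in Prep+/- and 308, 133 and 141 in Prep-/-. The M1 groups were far apart and the M2 groups overlapped (difference −3.29 ± 0.66, edgeR adjusted p = 0.00425). Ifit2, an interferon-induced RNA-binding protein gene, gave 4699, 3483 and 4769 in Prep+/- M1 and 69414, 20500 and 36438 in Prep-/- M1, against 260, 109 and 199 and then 433, 241 and 125 in M2 (difference −2.79 ± 0.63, adjusted p = 0.00897). Cmpk2, a mitochondrial nucleotide kinase gene, differed by −2.77 ± 0.58 (adjusted p = 0.00538). Prep-/- M1 replicate 1 was the highest library for all 3, and all 3 stayed called without it. Oasl1 and Oas3, of the oligoadenylate synthetase family, fell in M2. Oasl1 also rose in M1, with log2 effects of −1.44 in M2 and 1.18 in M1. Oas3 gave 1256, 659 and 519 in Prep+/- M2 and 374, 398 and 274 in Prep-/- M2, while its effect of 0.51 in M1 was not called (difference −1.73 ± 0.37, adjusted p = 0.00612). Zbp1, a nucleic acid sensor, rose in M2 by 1.54 and had a difference of 1.4 ± 0.42 (adjusted p = 0.0364), which was no longer called in 8 of the 12 fits that left out 1 library (each of Prep+/- M1 replicates 2 and 3, Prep+/- M2 replicates 2 and 3, Prep-/- M1 replicates 2 and 3, and Prep-/- M2 replicates 1 and 2). The number lower was 12 without Prep-/- M1 replicate 2 and 11 with the replicate block in M2. In M0, 25 of the 27 members rose.

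The promoter of Rsad2 shows the sequence class through which interferon-activated factors act. The 250 bases before the transcription start (RefSeq, GRCm38.p6, chr12:26456453-26456702, minus strand) hold a match to the core of the interferon-stimulated response element, GAAANNGAAA or on the other strand TTTCNNTTTC, in capitals.
Rsad2: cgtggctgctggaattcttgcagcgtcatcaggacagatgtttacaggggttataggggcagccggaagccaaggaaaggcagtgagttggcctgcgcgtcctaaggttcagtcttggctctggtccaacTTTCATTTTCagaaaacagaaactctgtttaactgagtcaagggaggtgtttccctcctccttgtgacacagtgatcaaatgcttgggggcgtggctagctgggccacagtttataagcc
The core was found in 10 of the 22 list members with a promoter (45.5%) and in 3.46% of 27025 genes. The list was made of interferon-induced genes, so this share does not bear on the difference between the states. Among members with a promoter, the core was present in 3 of the 6 called lower (Rsad2, Oas3 and Stat2) and in 7 of the 16 others. No match was found in this window for Cmpk2, Ifit2 or Oasl1, and Oas2, also called lower, had no promoter sequence.

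The unfolded protein and ATF4 list had the largest share of called members, 14 of 27 (51.9%), and a median of −0.36 (−0.4 to −0.09 with 1 library left out, −0.09 without Prep-/- M2 replicate 1). All 8 called lower in M2 (Phgdh, Chac1, Asns, Trib3, Ddit4, Mthfd2, Sesn2 and Shmt2) are genes of the amino acid and one-carbon response or stress regulators outside the endoplasmic reticulum. All 6 called higher (Dnajb9, Creld2, Manf, Hyou1, Sdf2l1 and Pdia4) are chaperones and folding factors of the endoplasmic reticulum. This division describes called members alone and was drawn after their values were seen. The other 13 were not called, among them the folding factors Hspa5, Hsp90b1, Pdia3, Pdia6, Calr and Canx, and Atf3, Ddit3, Psat1 and Ppp1r15a. Asns, the asparagine synthetase gene, gave 694, 585 and 481 in Prep+/- M1 and 2132, 2466 and 2214 in Prep-/- M1. In M2 it gave 2364, 1987 and 2774 in Prep+/- and 635, 737 and 2377 in Prep-/-. The rise in M1 was free of overlap, and in M2 the library that stood apart lay among the controls (difference −2.88 ± 0.52, edgeR adjusted p = 0.0023; −3.74 without that library). Trib3, a pseudokinase gene of the same response, gave 204, 182 and 103 in Prep+/- M1, 734, 640 and 574 in Prep-/- M1, 338, 231 and 310 in Prep+/- M2 and 138, 113 and 225 in Prep-/- M2 (difference −2.87 ± 0.45, adjusted p = 0.000991). Chac1, which degrades glutathione, differed by −3.13 ± 0.68 (adjusted p = 0.00716; −3.85 without Prep-/- M2 replicate 3) and went from 15.4 to 41 counts in Prep+/- M1 to 70.4 to 136 in Prep-/- M1. Dnajb9, a co-chaperone of BiP, ran the other way: 1231, 1338 and 1307 in Prep+/- M1, 972, 985 and 1010 in Prep-/- M1, 881, 849 and 848 in Prep+/- M2 and 1516, 1311 and 1574 in Prep-/- M2. Its groups did not overlap in either state (difference 1.16 ± 0.12, adjusted p = 6.25e-05). The other 5 folding factors called higher fell in M1, with effects between −1.03 and −0.64, and were not called in M2. Atf4 itself had an effect of −0.14 in M2 and 0.44 in M1, and its difference of −0.58 ± 0.24 was not called (adjusted p = 0.118). In M0, 18 members of the list fell. With any 1 library left out, 6 to 8 members were called higher and 7 to 10 lower.

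The promoters of Asns and Chac1, with that of Pck2, are shown for the C/EBP-ATF response element to which ATF4 binds, TGATGNAA or on the other strand TTNCATCA, in capitals. Its GNAA end can share the letters GAAA with the interferon element. The windows (RefSeq, GRCm38.p6) are the 250 bases before the start at chr6:7693210-7693459 (minus strand) for Asns, chr2:119350992-119351241 (plus strand) for Chac1 and chr14:55540016-55540265 (plus strand) for Pck2.
Asns: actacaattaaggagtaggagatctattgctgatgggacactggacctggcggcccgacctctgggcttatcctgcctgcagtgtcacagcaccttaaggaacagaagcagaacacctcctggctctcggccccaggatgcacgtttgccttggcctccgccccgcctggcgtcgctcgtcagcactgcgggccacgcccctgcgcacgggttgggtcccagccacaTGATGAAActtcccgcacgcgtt
Chac1: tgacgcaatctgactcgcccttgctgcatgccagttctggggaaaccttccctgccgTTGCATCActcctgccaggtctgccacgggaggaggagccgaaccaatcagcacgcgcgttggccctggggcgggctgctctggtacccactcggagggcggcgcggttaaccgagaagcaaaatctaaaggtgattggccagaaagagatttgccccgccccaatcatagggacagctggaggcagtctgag
Pck2: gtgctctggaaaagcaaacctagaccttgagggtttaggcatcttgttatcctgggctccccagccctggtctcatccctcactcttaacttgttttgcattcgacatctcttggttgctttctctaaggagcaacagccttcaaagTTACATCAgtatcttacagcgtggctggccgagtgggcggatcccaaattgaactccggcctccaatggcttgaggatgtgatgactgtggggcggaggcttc
The element was found in 3.91% of 27025 genes, in 2 of the 8 members called lower and in 1 of the 16 other members with a promoter (Atf3), and not in this window for Phgdh, Trib3 or Sesn2.

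**Figure D4:**
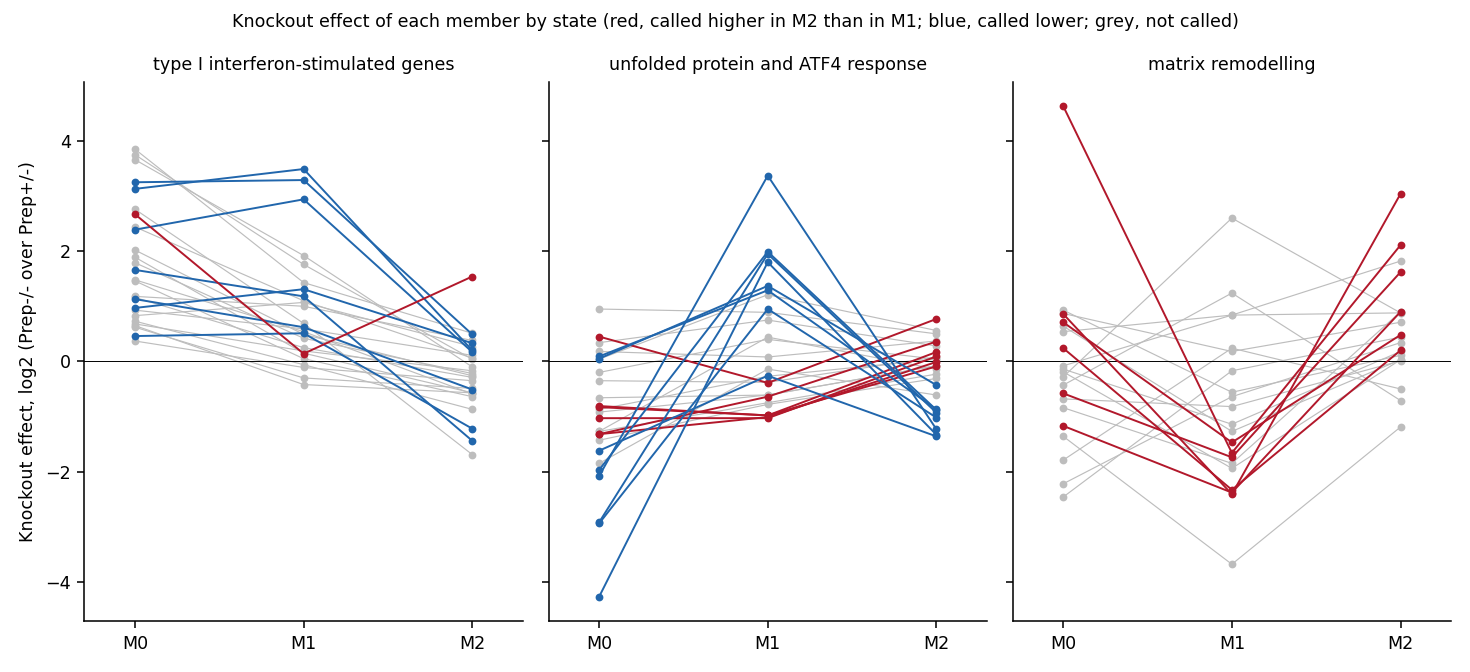
Log2 knockout effect (Prep-/- over Prep+/-) of the tested members of the interferon-stimulated, unfolded protein and ATF4, and matrix remodelling lists in M0, M1 and M2, 1 point per gene, with lines joining the same gene, red for members called higher in M2 than in M1, blue for those called lower and grey for the others. Interferon-stimulated genes rose in M0 and M1 (25 and 12 of 27 called) and lie around 0 in M2, where the median effect is −0.22.

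Genes of matrix remodelling, the proteases, inhibitors and glycoproteins of the extracellular space, had 6 of 21 tested members called, all with a higher knockout effect in M2 than in M1 (Mmp9, Thbs1, Fn1, Plaur, Mmp8 and Mmp27), with a median of 1.3. The medians of the effects were 0.44 in M2 and −1.14 in M1, where 10 members fell. Mmp8, a neutrophil-type collagenase gene, gave 3210, 3094 and 2602 in Prep+/- M1 and 399, 591 and 782 in Prep-/- M1, but 560, 591 and 505 in Prep+/- M2 and 633, 771 and 505 in Prep-/- M2. The fall was thus seen in M1, with overlap in M2 (difference 2.53 ± 0.34, edgeR adjusted p = 0.000272). Mmp27, another metalloproteinase gene, differed by 1.94 ± 0.26 (adjusted p = 0.000342). Mmp8 is also one of the granulocyte precursor markers, and of these it held the most counts over the 12 libraries. Their summed level, which moved the same way, is therefore not independent of Mmp8. The number called higher was 10 without Prep-/- M2 replicate 2 and with the replicate block in M2. Members were also called lower in some fits, 2 without Prep-/- M2 replicate 3 and 1 without Prep+/- M2 replicate 1, without Prep-/- M1 replicate 2 or with the replicate block in M2. The median was 0.72 without Prep-/- M2 replicate 3 and 0.84 without Prep+/- M2 replicate 1.

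Of 18 chemokines tested, 4 were called with a higher knockout effect in M2 (Ccl6, Ccl9, Ccl3 and Cxcl16) and 1 with a lower one (Ccl12), with a median of 1.15 that was 0.78 without Prep-/- M2 replicate 3. Ccl9, another CC chemokine, gave 88341, 119994 and 111337 in Prep+/- M1 and 26255, 34768 and 47935 in Prep-/- M1. The M2 cells gave 34846, 32752 and 37560 in Prep+/- and 70728, 67371 and 71976 in Prep-/-. Ccl9 fell in M1 and rose in M2 with no overlap (difference 2.55 ± 0.28, edgeR adjusted p = 6.73e-05). Cxcl16, a scavenger-type chemokine, gave 389, 359 and 264 in Prep+/- M2 and 1225, 803 and 677 in Prep-/- M2, with overlapping M1 counts (difference 1.44 ± 0.34, adjusted p = 0.01). Ccl12, a monocyte attractant, gave 612, 374 and 772 in Prep+/- M2 and 96.9, 79.3 and 73 in Prep-/- M2, and 4864, 6571 and 7794 in Prep+/- M1 and 5795, 2589 and 5013 in Prep-/- M1. It fell in M2, and its M1 libraries overlapped (difference −2.29 ± 0.45, adjusted p = 0.00384). Ccl3 differed by 2.31 ± 0.6 (adjusted p = 0.0173), but by 1.34 without Prep-/- M2 replicate 3, and was not called without Prep+/- M2 replicate 1 (2.11) or replicate 2 (2.08). A second chemokine was called lower with the replicate block in M2 and in each fit without Prep+/- M2 replicate 2, Prep-/- M1 replicate 2, Prep-/- M2 replicate 1 or Prep-/- M2 replicate 3.

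Of 18 inflammatory cytokines tested, 2 were called, both higher in M2 (Tgfb1 and Osm), with a median of 0.88 that was 0.42 without Prep-/- M2 replicate 3. Tgfb1, an anti-inflammatory cytokine, had effects of 0.2 in M2 and −0.78 in M1 (difference 0.98 ± 0.17, edgeR adjusted p = 0.00174). Osm differed by 1.07 ± 0.31 (adjusted p = 0.0314) and lost the call in 11 of 24 alternatives (other tools or settings, or 1 library left out). Il1b, Il6 and Tnf, cytokines released after LPS, fell in M1 after Prep ablation, but their M2 levels were low. Il1b had effects of −1.22 in M2 and −2.26 in M1, on M2 counts of 5.29 to 25.7 (difference 1.04 ± 0.94, adjusted p = 0.501). Il6 had no more than 3.19 normalized counts in any M2 library, so no difference is given. Tnf differed by 1.52 ± 0.75 (adjusted p = 0.189), by 0.07 without Prep-/- M2 replicate 3 and, then called, by 1.26 (adjusted p = 0.0275) with the replicate block in M2. Without that library 4 cytokines were called higher, and 1 was called without any one of Prep+/- M1 replicate 2 or 3, Prep+/- M2 replicates 1 to 3, Prep-/- M1 replicate 1 or 2, or Prep-/- M2 replicate 1 or 2. One was called lower without Prep+/- M2 replicate 2, Prep-/- M1 replicate 2 or Prep-/- M2 replicate 3, and with the replicate block in M2.

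In LPS sensing and NF-κB signalling, 5 of 27 were called higher in M2 (Nfkbiz, Tlr2, Cd14, Irak2 and Tnip1) and 1 lower (Tlr4), with a median of 0.44. The receptors moved in opposite directions in M1. Cd14, the LPS co-receptor, gave 21345, 28264 and 25979 in Prep+/- M1 and 11783, 13492 and 14526 in Prep-/- M1, and its M2 libraries overlapped (difference 1.19 ± 0.27, edgeR adjusted p = 0.00864). Tlr4, the LPS receptor, gave 1457, 1280 and 1354 in Prep+/- M1 and 2447, 2206 and 2362 in Prep-/- M1, against 3654, 3901 and 3649 and then 4171, 4262 and 3453 in M2. It rose in M1, and its M2 libraries overlapped (difference −0.69 ± 0.16, adjusted p = 0.0111). Tlr2, the lipoprotein receptor, fell in M1 by 1.07 on the log2 scale and differed by 1.46 ± 0.31 (adjusted p = 0.00647). Without Prep-/- M2 replicate 3, 8 members were called higher and the median was 0.23.

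Of 24 genes of cholesterol synthesis, 20 rose in M1 and 4 in M2, the median effects were 1.11 in M1 and 0.46 in M2, and the difference was called for 5, all lower (Acat2, Dhcr7, Mvk, Tm7sf2 and Stard4), with a median of −0.53. Dhcr7, the last enzyme of a branch of the pathway, gave 398, 362 and 337 in Prep+/- M1 and 713, 1203 and 1070 in Prep-/- M1. Its M2 libraries held 644, 776 and 730 in Prep+/- and 743, 839 and 854 in Prep-/-. The M1 groups were apart and the M2 groups overlapped (difference −1.26 ± 0.21, edgeR adjusted p = 0.00128). Acat2, acetoacetyl-CoA thiolase, differed by −1.87 ± 0.32 (adjusted p = 0.00178) and shares a near-identical stretch with Acat3. Tm7sf2 lost the call in 14 of the 24 alternatives and Mvk in 6. This list depended most on the library that stood apart: Hmgcs1, an early enzyme, gave 1998 and 2015 counts in Prep-/- M2 replicates 1 and 2 and 4161 in replicate 3, and without replicate 3, 21 of 24 members were called lower with a median of −1.08. The number was 3 without any one of Prep+/- M1 replicate 2, Prep+/- M2 replicate 1, Prep-/- M1 replicates 2 and 3 and Prep-/- M2 replicate 1, and 9 with the replicate block in M2.

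Fatty acid synthesis had 5 of 17 called, all lower (Elovl6, Acsl1, Fasn, Acaca and Fads1), and a median of −0.46, which was −1.06 without Prep-/- M2 replicate 3 and −0.29 without Prep-/- M2 replicate 2 or Prep+/- M2 replicate 3. Fasn lost the call in 9 of the 24 alternatives, Acaca in 6 and Acsl1 in 4, while Elovl6 kept it in all. Elovl6, a fatty acid elongase gene, gave 85.4, 67.8 and 68 in Prep+/- M1, 92.4, 247 and 159 in Prep-/- M1, 144, 162 and 179 in Prep+/- M2 and 39.4, 61.4 and 111 in Prep-/- M2. It fell in M2 and rose in M1 without overlap (difference −2.37 ± 0.47, edgeR adjusted p = 0.00412). Elovl6 is 97.4% identical to Gm11295 over 805 bases, and Acaca 99.2% to Gm5182 over 6118 bases, so reads may be divided between them. The count of called members was 9 without Prep-/- M2 replicate 3, 1 without Prep+/- M1 replicate 2 or 3, 2 without Prep+/- M2 replicate 3, Prep-/- M1 replicate 2 or Prep-/- M2 replicate 1, and 3 without Prep+/- M2 replicate 2, Prep-/- M1 replicate 1 or 3 or Prep-/- M2 replicate 2. Of 21 LXR targets and lipid handling genes, 4 were called higher and 3 lower, and the median was −0.41 (−0.49 to −0.09 with 1 library left out, −0.09 without Prep-/- M2 replicate 2). Abca1, the cholesterol exporter, gave 613, 731 and 890 in Prep+/- M2 and 4318, 4048 and 4327 in Prep-/- M2, against 6427, 5270 and 5398 and then 7871, 7169 and 6151 in M1. It rose in M2, with overlap in M1 (difference 2.2 ± 0.27, adjusted p = 0.000143). The higher LXR targets numbered 1 without Prep-/- M1 replicate 2 or Prep-/- M2 replicate 1 and 2 without Prep+/- M1 replicate 2 or 3 or any 1 of the Prep+/- M2 libraries, and 5 were called lower without Prep-/- M2 replicate 3.

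Most proliferation genes fell in M2, and fewer in M1. For DNA replication, 36 of 38 fell in M2 and 28 in M1, the difference was called for 10, all lower, and the median was −0.59. Mcm10, a replication initiation factor, gave 320, 311 and 310 in Prep+/- M1 and 191, 185 and 194 in Prep-/- M1. M2 libraries gave 912, 842 and 796 in Prep+/- and 121, 220 and 233 in Prep-/-. It fell without overlap in both states, and more in M2 (difference −1.42 ± 0.35, edgeR adjusted p = 0.0132), and it shares a near-identical stretch of 211 bases with Cdc26. For mitosis, 28 of 30 fell in M2 and 11 in M1, and 9 were called, all lower, with a median of −0.82. Tpx2, a spindle assembly factor, gave 2229, 2353 and 2260 in Prep+/- M2 and 606, 1098 and 857 in Prep-/- M2, while the M1 libraries overlapped at 391 to 483 in Prep+/- and 410 to 619 in Prep-/- (difference −1.66 ± 0.34, adjusted p = 0.0052). In M0, 37 of the 38 and 28 of the 30 fell. The replication count was 21 without Prep-/- M2 replicate 3. The mitosis count moved with every library: it was 14 without Prep-/- M2 replicate 2 between 3 and 5 without any other, and 16 with the replicate block in M2.

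Of 18 genes of class I antigen presentation 7 were called, all with a higher knockout effect in M2 (H2-K1, H2-D1, H2-T23, B2m, Tapbp, Psmb10 and Psme2), with a median of 0.49, and 7 rose in M2 against 3 in M1. Tapbp, which encodes the peptide-loading factor tapasin, gave 6904, 6064 and 5816 in Prep+/- M2 and 17570, 14465 and 11698 in Prep-/- M2. Its M1 counts overlapped at 25765 to 28565 in Prep+/- and 22508 to 28342 in Prep-/- (difference 1.28 ± 0.24, edgeR adjusted p = 0.00293). Tapbp shares an identical stretch of 774 bases with Zbtb22 on the same strand, and Psme2 is 99% identical to Psme2b over 795 bases. Psme2 lost the call in 9 of the 24 alternatives and Psmb10 in 5. The class I count was 3 without Prep+/- M1 replicate 2 or 3, Prep+/- M2 replicate 2 or Prep-/- M2 replicate 1, and 4 without Prep+/- M2 replicate 3 or Prep-/- M1 replicate 2 or 3. A member was called lower without Prep+/- M2 replicate 3, without Prep-/- M1 replicate 2 and with the replicate block in M2. Of 13 class II genes 2 were called higher (H2-Ab1 and Cd86) and 2 lower (H2-Ob and Cd40), with a median of 0.69 that was 0.38 without Prep+/- M1 replicate 2. Cd86, a co-stimulatory receptor, gave 94.7, 66.6 and 87.8 in Prep+/- M2 and 299, 296 and 261 in Prep-/- M2, with overlap in M1 (difference 1.89 ± 0.36, adjusted p = 0.00328). H2-Ab1, a class II beta chain gene, differed by 2.85 ± 0.77 (adjusted p = 0.0221) and lost the call without Prep+/- M1 replicate 2 (2.71), Prep+/- M2 replicate 3 (2.67), Prep-/- M1 replicate 1 (2.78) or Prep-/- M2 replicate 1 (2.55). H2-Ob had no more than 3 counts in any Prep-/- M2 library, so its size is not given. Class II counts were 4 higher without Prep-/- M2 replicate 3, 6 higher with the replicate block in M2, 1 higher without Prep+/- M1 replicate 2, Prep+/- M2 replicate 3, Prep-/- M1 replicate 1 or Prep-/- M2 replicate 1, and 1 lower without that library, Prep+/- M1 replicate 2, Prep+/- M2 replicate 3, Prep-/- M1 replicate 1 or Prep-/- M2 replicate 2.

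Guanylate-binding proteins and immunity-related GTPases, the interferon-γ-type effectors, mostly rose in both states, 10 of 14 in M2 and 12 in M1. The difference was called for 2, both higher (Gbp2 and Gbp9), and the median of 0.4 moved from 0.06 without Prep-/- M1 replicate 2 to 0.81 without Prep-/- M1 replicate 1. Gbp2 gave 406, 353 and 302 in Prep+/- M2 and 4207, 3806 and 1805 in Prep-/- M2, against 4664, 4345 and 5008 and then 13200, 5943 and 8591 in M1 (difference 2.22 ± 0.47, edgeR adjusted p = 0.00622). Gbp9 shares near-identical stretches with other members of its family, and its call was lost without any library other than Prep-/- M1 replicate 1 and Prep-/- M2 replicate 3. One member was called lower without Prep-/- M1 replicate 2.

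Of the alternative activation genes, 3 of 31 were called higher in M2 (Chil3, Clec7a and Ear2) and 2 lower (Mrc1 and Klf4), with a median of 0.41 that was 0.06 without Prep-/- M2 replicate 3. Chil3, the chitinase-like protein Ym1, gave 177, 277 and 215 in Prep+/- M1 and 178, 216 and 219 in Prep-/- M1. The counts in M2 reached 21032, 25473 and 19115 in Prep+/- and 85085, 64644 and 50066 in Prep-/-. It rose in M2 with no overlap, and the difference of 1.73 ± 0.46 (edgeR adjusted p = 0.0195) was no longer called without Prep+/- M1 replicate 2 (1.55), Prep-/- M1 replicate 1 (1.65) or Prep-/- M2 replicate 1 (1.52). Chil4 is 92.8% identical over 1019 bases. Mrc1, the mannose receptor CD206, gave 2633, 1934 and 2798 in Prep+/- M1, 4118, 3288 and 3815 in Prep-/- M1, 50825, 57730 and 49428 in Prep+/- M2 and 33911, 40849 and 25610 in Prep-/- M2. It fell in M2 and rose in M1 without overlap (difference −1.26 ± 0.24, adjusted p = 0.00315). Clec7a, the β-glucan receptor dectin-1, gave 8690, 8969 and 9742 in Prep+/- M2 and 19072, 16206 and 19820 in Prep-/- M2, and fell in M1 by 0.73 with overlapping libraries (difference 1.74 ± 0.33, adjusted p = 0.00335). Arg1, arginase 1, fell alike in both states, by 2.3 in M2 and 2.11 in M1, with a difference of −0.19 ± 0.35 (adjusted p = 0.759) that was 0.08 without Prep-/- M1 replicate 3. Among the other genes the study names, Nos2 differed by −1.73 ± 1.32 (adjusted p = 0.415) and Retnla by 1 (adjusted p = 0.491), and neither was called. Nos2 rose in M1 by 2.79, but its M2 libraries held only 0 to 28.7 counts. Its difference was −0.18 without Prep+/- M2 replicate 3, −1.06 without Prep-/- M1 replicate 1 and −3.58 without Prep-/- M2 replicate 1. Retnla held 15.9 to 70 counts in the M1 libraries. Klf4, a zinc finger factor, rose in M1 by 0.76 and differed by −0.9 ± 0.26 (adjusted p = 0.0287). It lost the call in the fits given below with 1 member lower, where Mrc1 kept it. Ear2 had no more than 3 counts in any Prep-/- M1 library and a near-identical copy, Ear1. Called members were 7 higher with the replicate block in M2, 1 higher without Prep+/- M1 replicate 2 or Prep-/- M2 replicate 1, and 1 lower without Prep+/- M1 replicate 1 or 3, Prep+/- M2 replicate 1 or 2, Prep-/- M1 replicate 1 or Prep-/- M2 replicate 1.

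Of 14 arginine and polyamine genes only Slc7a2, a cationic amino acid transporter, was called. It gave 3116, 3427 and 3143 in Prep+/- M1 and 612, 716 and 886 in Prep-/- M1, and 2475, 2746 and 2513 in Prep+/- M2 and 3249, 2633 and 4119 in Prep-/- M2. It fell in M1, and the M2 libraries overlapped (difference 2.5 ± 0.21, edgeR adjusted p = 5.22e-06). A second member was called higher without Prep-/- M2 replicate 2 and 1 was called lower without Prep-/- M2 replicate 3 and with the replicate block in M2. The median was 0.03 (0.03 to 0.15 with 1 library left out).

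Lysosomal cathepsins, the acid proteases of degradation, rose in M2 in 10 of 13 cases and in M1 in 1. The difference was called for 3, all higher (Ctsh, Ctsf and Ctsz), with a median of 0.58. Ctsh gave 1761, 1763 and 1537 in Prep+/- M2 and 6030, 4712 and 3210 in Prep-/- M2, while the M1 counts overlapped (difference 1.34 ± 0.27, edgeR adjusted p = 0.00497). Ctsb, Ctsd, Ctsk and Ctss, which the study names, had differences of 0.38, 0.5, 0.62 and 0.58 and were not called (adjusted p = 0.169, 0.103, 0.0861 and 0.103). Their effects were 0.76, 0.59, 1.08 and 0.94 in M2 and 0.38, 0.09, 0.46 and 0.36 in M1, the latter under the fold minimum. Ctsk was called in 3 of the 24 alternatives, among them without Prep-/- M1 replicate 1 (0.78, adjusted p = 0.0406), and Ctss in 1. The call of Ctsf was lost with most single libraries left out, all but Prep+/- M1 replicate 1, Prep-/- M1 replicate 2 and Prep-/- M2 replicate 3. Of 37 other lysosomal genes 3 were called higher and 1 lower, with a median of 0.07 (0.01 to 0.11 with 1 library left out), and of 17 V-ATPase subunits 2 were called, both higher (Atp6v0a1 and Atp6v0c), with a median of 0.29. The other lysosomal genes were 6 higher without Prep-/- M2 replicate 3, 1 higher without Prep+/- M1 replicate 2, Prep+/- M2 replicate 3 or Prep-/- M2 replicate 1, 0 lower without Prep+/- M1 replicate 2 or 3, Prep-/- M1 replicate 1 or Prep-/- M2 replicate 1, and 3 lower with the replicate block in M2. One V-ATPase subunit was called without Prep+/- M2 replicate 1 or 3, Prep-/- M1 replicate 2 or Prep-/- M2 replicate 1, and with the replicate block in M2 the difference of Atp6v0c went from 0.59 to 0.58, under the fold minimum.

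BMP and TGF-β signalling had 3 of 24 called higher and 2 lower, with a median of −0.06 (−0.19 to −0.01 with 1 library left out). Id3, a target of BMP signals, gave 165, 406 and 322 in Prep+/- M1, 47.3, 104 and 68.9 in Prep-/- M1, 1229, 879 and 798 in Prep+/- M2 and 50, 91 and 24.3 in Prep-/- M2. It fell in both states and more in M2 (difference −2.12 ± 0.55, edgeR adjusted p = 0.019; −1.79 and not called without Prep-/- M1 replicate 2). NRF2 antioxidant genes had 1 of 20 called higher and 2 lower, with a median of 0.05 (−0.14 without Prep-/- M2 replicate 3 to 0.11). Gclm, a glutathione synthesis subunit, gave 2612, 2443 and 2782 in Prep+/- M2 and 865, 1123 and 1783 in Prep-/- M2, against 1405, 1416 and 1433 and then 2291, 2011 and 1991 in M1 (difference −1.62 ± 0.28, adjusted p = 0.00169). It fell in M2 by 1.05, and the M1 effect of 0.57 was under the fold minimum. Without Prep-/- M2 replicate 3, 4 BMP and TGF-β genes and 5 NRF2 genes were called lower, and 1 BMP and TGF-β gene without Prep-/- M1 replicate 2. With the replicate block in M2, 4 BMP and TGF-β genes were lower and 2 NRF2 genes higher. The NRF2 gene called higher, Sod2, was lost without Prep+/- M1 replicate 2 or 3, Prep+/- M2 replicate 1 or 2, Prep-/- M1 replicate 1 or Prep-/- M2 replicate 1, and 2 were called higher without Prep+/- M2 replicate 3, Prep-/- M1 replicate 2 or Prep-/- M2 replicate 2 or 3.

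In the remaining lists few genes or none were called. Of 28 glycolysis and HIF-1 genes 2 were called higher and 1 lower, with 1 higher without Prep+/- M2 replicate 2, and with 0, 2 and 3 lower without Prep+/- M1 replicate 2, Prep-/- M1 replicate 1 and Prep-/- M2 replicate 3. Their median of 0.12 was −0.13 without Prep-/- M2 replicate 3, and 4 were higher with the replicate block in M2. All 54 cytosolic ribosomal protein genes had a difference above 0, with a median of 0.34, but 1 (Rpl10a, 0.64) was called, and the number called was 2 without Prep-/- M2 replicate 3 or with the replicate block in M2 and 0 without Prep+/- M1 replicate 2 or 3, any 1 of the Prep+/- M2 libraries, Prep-/- M1 replicate 1 or 3 or Prep-/- M2 replicate 1 or 2. The median was 0.2 without Prep+/- M1 replicate 2. Of 45 oxidative phosphorylation subunits none was called by edgeR, DESeq2 or limma-voom, with 2 at an unadjusted p under 0.05 and a median of 0.23. Of 20 complement and Fcγ receptor genes none was called by any of the 3 tools, with 5 at an unadjusted p under 0.05 and a median of −0.09 (−0.15 to 0.02 with 1 library left out), and 1 was called lower without Prep-/- M2 replicate 3. The replicate block in M2 called 1 of them higher and 2 lower.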

How the data were processed

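RNA-seq libraries of 12 M1 and M2 macrophage cultures (3 per genotype and state) were compared, with 6 M0 libraries in the same fit. Per the labels and methods, the authors trimmed reads with Trimmomatic 0.36, aligned them to GRCm39 with HISAT2 2.2.1.0 and counted them with StringTie. The deposited values are raw counts per gene symbol (16314 rows) that the authors did not normalize. The annotation release and the use of strand in counting are not given in the sources used here.

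From these counts, edgeR 4.0.16 (R 4.3.3) fitted a quasi-likelihood model with 1 coefficient per group to all 18 libraries, after TMM scaling and the default filter on low counts, and tested (Prep-/- M2 minus Prep+/- M2) minus (Prep-/- M1 minus Prep+/- M1) over 12021 genes. Genes with a Benjamini-Hochberg adjusted p under 0.05 and a fold over 1.5 were called. The test is two-sided. Normalized counts are counts scaled to the mean effective library size. Total counts per library were 19549993 to 22598279. DESeq2 1.42.0, limma-voom (limma 3.58.1), other scalings, filters, replicate blocks and each library left out were alternatives. The replicate numbers tied the genotypes together in M2 by the correlation of their deviations (each over 0.1), not in M1, and what they mark is not given; a block in M2 alone was added after seeing the data. Scripts were tested on simulated data.

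Named genes averaged 5 CPM or more and had no group with 3 counts or fewer throughout. They were the 6 largest differences among genes rising in M2 and falling in M1, the 6 in the reverse class, the 6 largest positive and 6 largest negative of the others, every gene the study names and up to 4 called members of each list, where groups at the floor are named. One gene chosen by this rule is not reported here. List members given beyond these, and genes named as not called, were chosen after their values were seen. The members, lists and tests were chosen with earlier results of these data known. Positions come from GENCODE vM39 on GRCm39, for which 103 of 103 named genes were matched, and near-identical stretches (at least 90% over 200 bases) from blastn 2.17.0. Of the named genes, 23 had such a stretch, and it is not given above for each.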

Additional observations from a re-analysis of the deposited data

Results flagged for a closer look

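The knockout effect differed between M1 and M2 by the test of the difference itself (edgeR) for 551 genes higher and 884 lower in M2. The largest in each class have these log2 differences. Thbs1 (3.77), Fn1 (3.36), Rbpms (3.35), Ccl6 (3.16), Adam19 (2.98) and Adgre5 (2.73) rose in M2 and fell in M1. Ednrb (−5.51), Phgdh (−4.61), Slfn9 (−2.93), Tspoap1 (−2.88), Ddah2 (−2.75) and Pck2 (−2.73) fell in M2 and rose in M1. Mmp9 (5.46), Acpp (4.33), Phlda1 (3.98), Plaur (3.29), Htra4 (3.12) and Upp1 (2.97) had the largest other positive differences. Dmpk (−4.08), Cd69 (−3.61), Ctnnd2 (−3.54), Rsad2 (−3.29), Fabp7 (−2.89) and Asns (−2.88) had the largest other negative ones. Of these 24 genes, 20 were called under all 24 alternatives, and Mmp9, Phlda1, Upp1 and Cd69 were not. Among all 91 called named genes the number was 40. No explanation of these differences was tested.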

How the results depend on the processing

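Of 103 named genes, no called one changed sign under any of the 24 alternatives. Of the others, Prep (−0.03; 0.01 by DESeq2 and with its size factors, 0.06, 0.09 and 0.17 with single libraries left out) and Arg1 (−0.19; 0.08) did, without a call. With 1 library left out, 1054 comparisons of a named gene kept their side of the threshold, 180 lost the call and 2 gained it, and under the other alternatives the numbers were 1143, 87 and 6. Called genes numbered 1742 by DESeq2 (1394 shared with the 1435), 1361 by limma-voom (1307 shared), 1452 with DESeq2-type size factors and 1303 with no filter on low counts. A fit of the M1 and M2 libraries alone, without M0, called 1583 genes (1338 shared), 598 higher and 985 lower. The share called higher was 38.4%, but 44.8% by DESeq2 and 44.6% with its size factors. Testing against a fold of 1.5 (glmTreat) left 86 genes higher and 210 lower, 3 in opposite directions, 723 in M2 and 634 in M1. With no fold minimum, opposite directions were seen in 204 genes, with 2967 passing in M2 and 4370 in M1. With 1 library left out, 355 to 680 genes were higher (355 without Prep+/- M1 replicate 2 or Prep+/- M2 replicate 2), 594 to 1168 lower (1168 without Prep-/- M2 replicate 3) and 61 to 139 opposite (61 without Prep+/- M1 replicate 2), with 1426 to 2603 passing in M2 and 1745 to 2895 in M1 (1745 without Prep-/- M1 replicate 1). The causes were not tested. Of 91 called named genes, 40 stayed called under all 24 alternatives and 58 with glmTreat aside. Correlations of same-numbered deviations were over 0.1 for all 3 pairs only between genotypes in M2 (0.249 to 0.462). They were 0.01 to 0.101 between genotypes in M1, −0.206 to −0.022 between states in Prep+/- and 0.054 to 0.183 in Prep-/-. The block in M2 changed the call of no named gene other than Upp1, Cd69, Tnf and Atp6v0c. A replicate block gave 642 higher and 1049 lower, a block within genotype 502 and 855, and blocks within state and in M2 alone, both chosen after seeing the data, 748 and 1215 and 733 and 1238. With 3 libraries per group, small differences remain undetectable at the median SE of 0.25 (log2).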
